A study of Mus musculus with 4 samples.

Results

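The noncoding RNAs that gave a clear signal on 4 mouse arrays were 238 transcripts, 10.2% of the 2342 accessions that the array carries under the RefSeq prefix for noncoding RNA (NR_). Each was represented by 1 probe, the brightest where an accession had several, and was kept when its level reached 0 on at least 1 array. The level is the log2 signal minus the 75th percentile of log2 signal on the same array, so a level of 0 is brighter than 75 of 100 probes for RNA. The measured levels therefore chose the members, and how many members have a clear signal is no finding. Of 250 accessions that reached this level, 12 were left out because their symbol also had a probe for a protein-coding (NM_) transcript. Just inside the threshold, the highest level was 0.0064 for Fam120aos, 0.0155 for 9530082P21Rik and 0.0234 for 2700099C18Rik. Just outside it, 0610009L18Rik reached -0.0359 and 2700046G09Rik reached -0.0512.

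Noncoding RNAs are made by several unrelated routes. Long noncoding RNAs (lncRNAs) are transcribed and processed much like messenger RNAs and act in the nucleus or the cytoplasm, whereas small nucleolar RNAs (snoRNAs) are usually cut from introns of a host transcript and guide chemical modification of ribosomal and spliceosomal RNA. Transcribed pseudogenes are copies of coding genes whose RNA is not expected to be translated into the original protein. RUVBL2 is an ATPase that works with its partner RUVBL1 in the INO80, SRCAP and TIP60 chromatin complexes and in the R2TP chaperone complex, which takes part in the assembly of snoRNA-protein particles.

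The cells were RAW264.7, a mouse macrophage-like line, and the series title sets the question as the part RUVBL2 plays in gene expression induced by lipopolysaccharide (LPS), a bacterial outer membrane component sensed by macrophages. One group received control siRNA and DMSO, another control siRNA and LPS, and the other two received a pool of siRNAs (SMARTpool) labelled as directed against Ruvbl2 with DMSO or with LPS. All cells were analysed 2 days after transfection by electroporation or with a lipid reagent. Which of these methods was used for which sample, and the dose and duration of LPS, were not given in the sources used here. Total RNA from each group was labelled with Cy3 and hybridised to 1 array, so there were 4 arrays, 1 per group, and no replicates.

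Without replicates no difference can be set against biological error, and none carries a p-value. A member was called higher or lower when its level differed by at least 1 on the log2 scale, which is 2-fold, and other differences are given as values only. Repeat spots of probes printed 10 times give only the reading error within an array. For a difference between 2 arrays it had a median SD of 0.056 at levels of 3 or more (268 probes) and of 0.14 at levels between -1 and 1 (2 probes). In such bulk RNA, fewer cells of a type and less RNA per cell cannot be told apart.

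Between 54.1% and 55.0% of RNA spots were well above background and 0 were saturated. Ruvbl2 had a level of 5.01 with control siRNA and DMSO, 4.92 with control siRNA and LPS, 4.67 with Ruvbl2 siRNA and DMSO and 4.51 with Ruvbl2 siRNA and LPS. It was thus 0.34 lower in DMSO and 0.40 lower in LPS with its siRNA, below the size of a call in both, while Ruvbl1 differed by 0.00 and 0.14. All 8 macrophage markers (Cd14, Adgre1, Csf1r, Lyz2, Itgam, Cd68, Fcgr1 and Spi1) were detected (well above background) on every array. Of 15 markers of B cells, T cells, fibroblasts, epithelial and mast cells, Cd3e, Cd3d and Col1a2 were detected on 4 arrays, and Cd79a and Cma1 on 1 each. Cma1 had a level of -1.19 on the array with Ruvbl2 siRNA and DMSO and was between -7.00 and -5.54 on the others, and the part of other cells in the results was not tested. Array position went with the siRNA (row 1 for control, row 2 for Ruvbl2), and these cannot be told apart. On the array with Ruvbl2 siRNA and DMSO the 7 spike-in probes, which report RNA added in fixed amount, were at a level of 3.95, against 3.59 to 3.64 on the other 3. When levels were centred on the spike-ins, the median difference over 27831 probes above background went from 0.03 to -0.28 for the siRNA comparison in DMSO and from -0.05 to 0.32 for the LPS comparison with Ruvbl2 siRNA. This scale adds 0.37 to every LPS difference under Ruvbl2 siRNA, -0.31 to every siRNA difference in DMSO and 0.32 to every difference of LPS effects, against 0.05 to every LPS difference under control siRNA and 0.00 to every siRNA difference in LPS.

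By the RefSeq gene table (GRCm38.p6), the members held 135 lncRNAs, 60 transcribed pseudogenes, 10 snoRNAs, 7 spliceosomal or other small nuclear RNAs, 3 transcripts in the RNase P class, 2 ribosomal RNAs and 4 transcripts of other classes. The remaining 17 accessions had no entry in the table and are given by accession. The 221 members with a symbol came from 217 genes, as 4 genes had 2 member accessions each. All 238 members were detected on each of the 4 arrays, which the choice by level nearly fixes. Of them, 210 were at 0 or more on all 4 arrays and 28 on fewer. A member among those 28 was kept through the arrays where it was high, so its difference is partly set by the choice.

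The promoters of 4 lncRNAs are shown because these genes recur in the results below. Lncpint and 2210408F21Rik are neighbours that start 1877 bases apart on opposite strands and point away from each other, 2310040G24Rik was among the members with the largest decrease in LPS, and Ptgs2os2, also listed as lincRNA-Cox2, lies beyond the 3′ end of Ptgs2, the gene of the inducible cyclooxygenase, on the opposite strand. Each sequence runs 5′ to 3′ on the strand of the gene, from 250 bases before the start site through 50 bases from it, and was taken from RefSeq on GRCm38.p6. Capitals mark a match to a searched motif.
Lncpint, chr6:31218425-31218724, minus strand: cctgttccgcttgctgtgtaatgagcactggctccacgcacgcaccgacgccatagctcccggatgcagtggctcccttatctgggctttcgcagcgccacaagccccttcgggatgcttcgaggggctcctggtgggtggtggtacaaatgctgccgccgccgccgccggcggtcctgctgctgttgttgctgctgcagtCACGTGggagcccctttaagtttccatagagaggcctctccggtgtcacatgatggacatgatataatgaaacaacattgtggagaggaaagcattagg
2210408F21Rik, chr6:31220101-31220400, plus strand: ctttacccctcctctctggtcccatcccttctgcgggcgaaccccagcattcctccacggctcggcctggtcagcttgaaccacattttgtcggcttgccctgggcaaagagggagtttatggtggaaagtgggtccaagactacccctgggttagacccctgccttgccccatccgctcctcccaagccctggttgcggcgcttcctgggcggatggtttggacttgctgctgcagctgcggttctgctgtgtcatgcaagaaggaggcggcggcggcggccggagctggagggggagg
2310040G24Rik, chr6:86488178-86488477, minus strand: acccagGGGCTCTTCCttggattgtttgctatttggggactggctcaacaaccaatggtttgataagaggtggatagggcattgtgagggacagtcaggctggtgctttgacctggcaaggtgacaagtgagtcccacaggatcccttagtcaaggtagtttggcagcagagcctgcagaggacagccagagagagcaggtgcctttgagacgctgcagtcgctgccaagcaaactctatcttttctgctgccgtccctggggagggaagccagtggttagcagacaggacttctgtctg
Ptgs2os2, chr1:150164899-150165198, minus strand: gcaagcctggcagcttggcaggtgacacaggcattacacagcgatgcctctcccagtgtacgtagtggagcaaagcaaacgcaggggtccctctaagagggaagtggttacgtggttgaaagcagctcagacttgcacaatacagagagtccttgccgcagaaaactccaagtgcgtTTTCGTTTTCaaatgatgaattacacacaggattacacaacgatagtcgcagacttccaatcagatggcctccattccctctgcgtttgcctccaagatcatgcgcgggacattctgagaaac

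Motifs were searched on both strands, with no overlap between their matches here. They were the NF-kappaB type GGGNNNTTCC, the interferon-stimulated response element type GAAANNGAAA and the E-box CACGTG. The TATA type TATAAA and the cyclic AMP response element (CRE) type TGACGTCA were searched too. The Lncpint promoter held the E-box at positions -49 to -44 relative to its start. The Ptgs2os2 promoter held TTTCGTTTTC, the reverse complement of an interferon-type match, at positions -73 to -64, and the 2310040G24Rik promoter held GGGCTCTTCC at positions -244 to -235. The 2210408F21Rik window held none of the motifs, and no window held the TATA or CRE type. These letters are common: the NF-kappaB type was in 5.56% of all 32851 promoters in the table, the interferon type in 3.44% and the E-box in 7.15%. The TATA type was in 13.6% and the CRE type in 1.79%. Among the 117 promoters of members, which came from 104 of the 217 genes, the shares were 7.69%, 3.42% and 17.1% for the first 3 motifs. They were 15.4% for the TATA type and 5.13% for the CRE type. A match describes the sequence and is not evidence of binding.

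LPS was compared with DMSO first under control siRNA. Most noncoding members hardly differed: 186 of 238 (78.2%) lay within 0.5 of 0 and the median difference was -0.02, against 79.1% and -0.02 over all 12508 array targets chosen by the same level rule. LPS called 6 members higher and 6 lower, which is 2.52% of members each way. Over all those targets 3.91% were called higher and 1.93% lower. Of the 6 called higher, 3 (AU022793, 9230102O04Rik and 1600010M07Rik) were below 0 on at least 1 array and so had to be high in another. The same holds for 2 of the 6 called lower (2700069I18Rik and NR_045265). By class, the calls fell on 3 of 135 lncRNAs in each direction and on 2 pseudogenes higher and 1 lower of 62, and on 0 of 21 small structural RNAs.

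The lncRNA AU022793 rose most. Its level was -1.29 with control siRNA and DMSO, 1.60 with control siRNA and LPS, -1.80 with Ruvbl2 siRNA and DMSO and 1.91 with Ruvbl2 siRNA and LPS. Both LPS arrays were high and both DMSO arrays low, with LPS differences of 2.88 (7.39-fold) under control siRNA and 3.71 under Ruvbl2 siRNA. The next coding gene beside it is Lrp12, which encodes a receptor of the low-density lipoprotein receptor family and was 1.39 and 1.37 higher with LPS.

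The accession NR_033578 followed, at levels of 2.08, 4.42, 2.01 and 4.53 in the same order of arrays. Its LPS differences were 2.34 and 2.52, the 2 siRNAs giving nearly the same levels within each treatment.

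H2-Q5, a pseudogene of the class I histocompatibility family whose proteins present peptides to T cells, had levels of 1.14, 2.33, 0.87 and 1.75. It was 1.18 higher with LPS under control siRNA and 0.87 higher, short of a call, under Ruvbl2 siRNA. Another class I pseudogene, H2-K2, had levels of 5.77, 6.61, 5.67 and 6.25 and LPS differences of 0.84 and 0.59, both below the size of a call. H2-Q4, the coding neighbour of H2-Q5, differed by -0.15 and 0.06. Class I genes share long stretches of sequence, so signal from a relative cannot be told apart from signal of the pseudogene.

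Marcksl1-ps4 is named as a pseudogene of Marcksl1, the gene of an actin-regulating substrate of protein kinase C. It had levels of 0.80, 1.94, 1.04 and 1.77, so that both LPS arrays were above both DMSO arrays. It rose by 1.15 under control siRNA and differed by 0.73 under Ruvbl2 siRNA, and the parent Marcksl1 by 1.47 and 1.05. Slfn10-ps, a pseudogene of the Schlafen family of interferon-inducible genes, had levels of 1.58, 2.36, 1.38 and 2.42. Its difference of 0.78 under control siRNA was no call and that of 1.04 under Ruvbl2 siRNA was, while a second probe gave 0.84 and 0.96. These values place the pair of siRNAs on opposite sides of the 2-fold line by a small margin only. Slfn8, the coding neighbour of Slfn10-ps, differed with LPS by 0.04 under control siRNA and 0.93 under Ruvbl2 siRNA.

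Another 2 lncRNAs, with low levels, were also called higher under control siRNA. Each reached 0 on LPS arrays only, so the direction of its LPS difference is partly set by the choice of members. 9230102O04Rik overlaps Gata3, a transcription factor gene, and had levels of -0.98, 0.08, -0.84 and -0.29, with a difference of 1.05 for LPS, beside 1.06 for Gata3. Under Ruvbl2 siRNA the LPS differences were 0.55 and 0.69. 1600010M07Rik had levels of -0.82, 0.21, -0.41 and 0.46 and LPS differences of 1.03 and 0.88, while its coding neighbour Tmem41b differed by -0.07 and 0.22. Both dropped below 2-fold after normexp background correction, to 0.82 and 0.88.

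The largest decreases with LPS were in 2 lncRNAs of equal size. 2210408F21Rik had levels of 3.75 with control siRNA and DMSO, 1.94 with control siRNA and LPS, 4.28 with Ruvbl2 siRNA and DMSO and 3.37 with Ruvbl2 siRNA and LPS. The array with control siRNA and LPS was the lowest by far, and the LPS difference was -1.81 under control siRNA and -0.92 under Ruvbl2 siRNA. Its coding neighbour Mkln1, a regulator of cell spreading, differed by 0.19 and 0.11, so the neighbour did not share the decrease in size or sign.

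2310040G24Rik had levels of 1.86, 0.05, 2.18 and 1.04. It fell by 1.81 with LPS under control siRNA and by 1.14 under Ruvbl2 siRNA, or 0.77 when the arrays were centred on the spike-ins. C87436, which lies beside it on the other strand, differed by -0.69 and -0.48.

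2700069I18Rik lies over Zfhx4, a gene of a large zinc finger and homeodomain protein, and had levels of 0.99, -0.36, 1.34 and 0.78. It was 1.35 lower in LPS under control siRNA and 0.55 lower, no call, under Ruvbl2 siRNA. Zfhx4 differed by -0.71 and -0.36. The pseudogene Gm5124 had levels of 3.19, 2.11, 3.84 and 3.12, a decrease of 1.08 under control siRNA and a difference of -0.71 under Ruvbl2 siRNA. The accessions NR_045265 and NR_027875 completed the 6, at -1.11 and -1.01 under control siRNA and -0.87 and -0.73 under Ruvbl2 siRNA. The first was called under all alternatives except normexp, and the second missed the 2-fold line under centring on the spike-ins or on the median of detected probes.

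Under Ruvbl2 siRNA, LPS called 3 members higher (AU022793, NR_033578 and Slfn10-ps) and 2 lower (2310040G24Rik and Firre). Over all targets 2.81% were called higher and 1.30% lower. The median member difference was -0.07, against -0.04 over all targets, and 194 members (81.5%) lay within 0.5 of 0. With the arrays centred on the spike-ins, 11 members were called higher and 0 lower, and the median became 0.29. Firre, an X-linked lncRNA that organises chromatin in the nucleus, had levels of 1.46, 0.57, 1.38 and 0.23. Both LPS arrays were low, and its difference was -1.15 under Ruvbl2 siRNA, or -0.78 on the spike-in scale, and -0.89 under control siRNA.

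**Figure D1:**
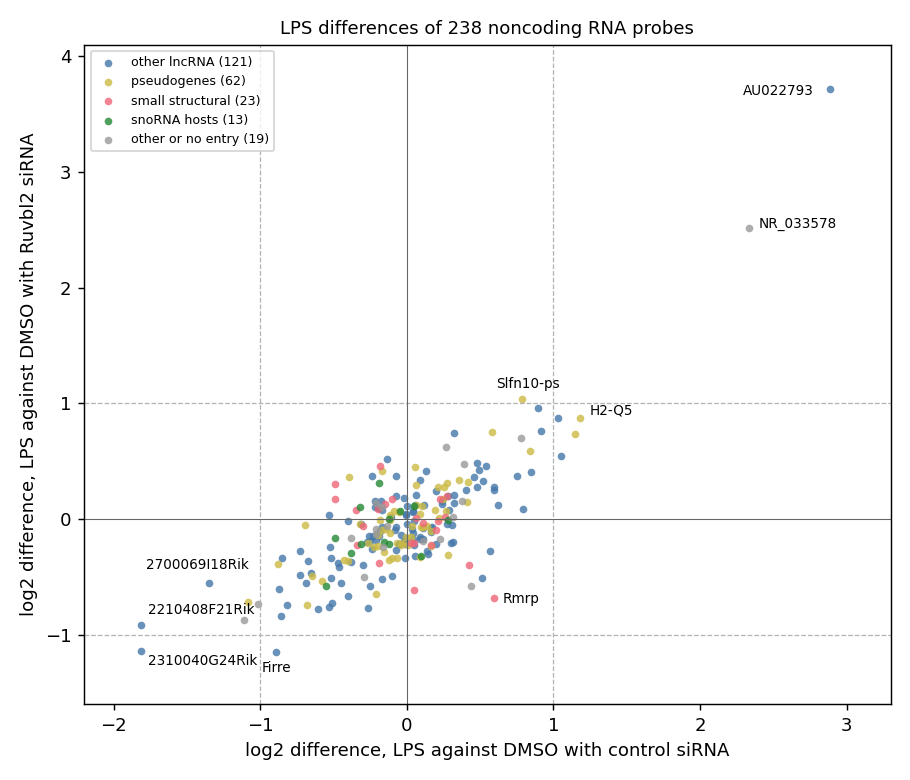
LPS minus DMSO differences of the 238 members on the log2 scale, with control siRNA on the x axis and Ruvbl2 siRNA on the y axis; each point is 1 member, coloured by class, and dashed lines mark the 2-fold size. AU022793 and NR_033578 stand apart at the upper right, and 2210408F21Rik and 2310040G24Rik at the lower left.

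The 2 LPS comparisons share no array, and across the 238 members their differences correlated with Pearson's r of 0.78 and Spearman's rho of 0.59. Across 9294 coding transcripts chosen by the same level rule the values were 0.87 and 0.76. These are descriptions across transcripts, which are not independent replicates, and all transcripts of an array share its hybridisation. A total of 160 of the 238 members had the same sign in both, beside 7212 of the 9294 coding transcripts. AU022793 and NR_033578 were called higher in both comparisons, and 2310040G24Rik was the member called lower in both. Of these, AU022793 was a member through its LPS arrays only.

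Members known from work on macrophage activation numbered 3, and none was called with LPS. Ptgs2os2, or lincRNA-Cox2, is known as an LPS-inducible regulator of immune genes, and had levels of -0.24, 0.65, -0.71 and 0.24. It reached 0 on the LPS arrays only, so the direction of its LPS difference is partly set by the choice of members. Both LPS arrays were above both DMSO arrays, by 0.89 under control siRNA and 0.96 under Ruvbl2 siRNA, just under 2-fold. The second value ranged from 0.80 to 1.32 over the alternatives and passed 2-fold on the spike-in scale. Ptgs2 itself rose by 3.86 and 2.34. In LPS, Ptgs2 was 1.33 lower with Ruvbl2 siRNA than with control siRNA and Ptgs2os2 differed by -0.41. Ttc39aos1 had levels of 0.62, 0.60, 0.48 and 0.66.

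Neat1 is the scaffold of nuclear paraspeckles and is the third of these RNAs. Its levels were 1.41 with control siRNA and DMSO, 1.95 with control siRNA and LPS, 0.51 with Ruvbl2 siRNA and DMSO and 0.96 with Ruvbl2 siRNA and LPS. Both Ruvbl2 siRNA arrays were below both control arrays, by 0.90 in DMSO and 0.99 in LPS, which is just short of 2-fold. A second Neat1 probe, which the choice of members did not use, gave -0.998 and -0.951. LPS differences were 0.54 and 0.46 for the first probe and 0.42 and 0.46 for the second. Centred on the spike-ins, the siRNA difference in DMSO was -1.21, and over the alternatives it ranged from -1.21 to -0.78. Frmd8, the coding gene next to Neat1, differed by 0.09 and 0.09.

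**Figure D2:**
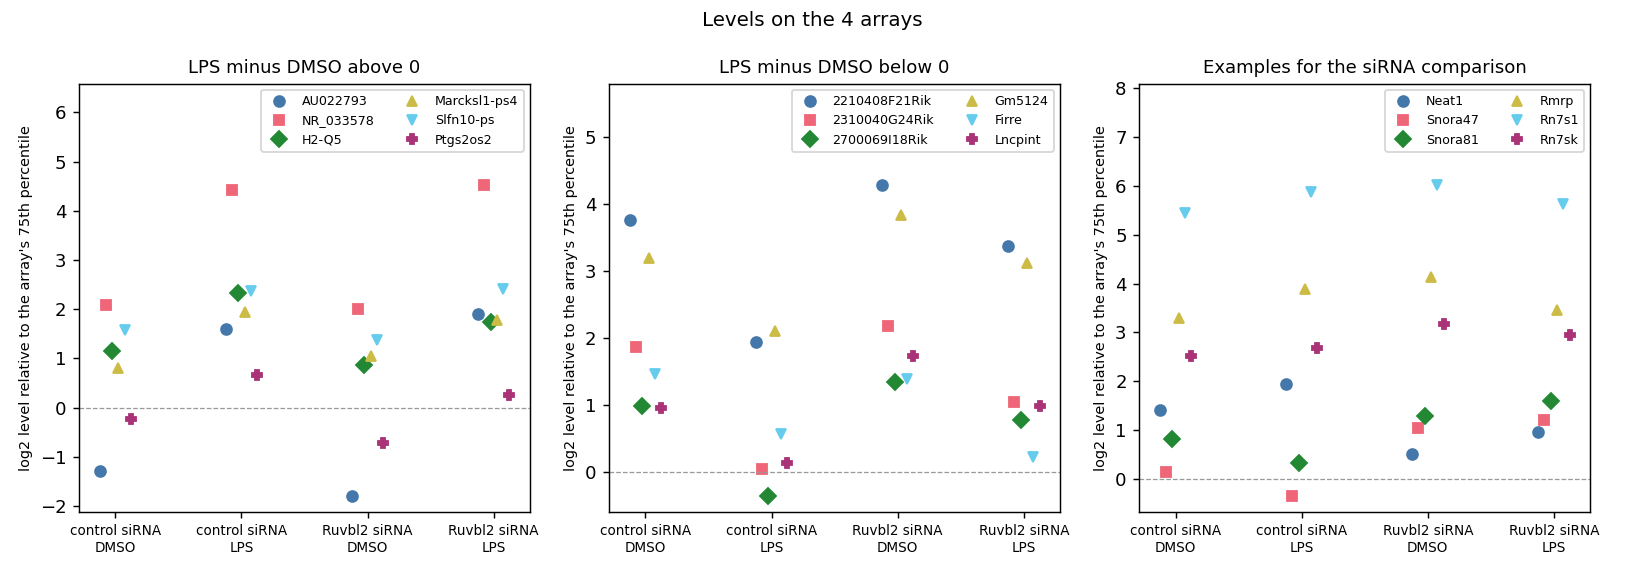
Levels of 18 members on the 4 arrays, as log2 signal relative to the 75th percentile of each array (dashed line at 0); each symbol is 1 member on 1 array, with 6 members in each panel. The left and middle panels hold members picked for LPS differences above 0 and below 0. In the left panel both LPS arrays are above both DMSO arrays for all 6 members, which that choice nearly fixes. In the right panel Neat1 is lowest on the Ruvbl2 siRNA arrays.

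Ruvbl2 siRNA was then compared with control siRNA. In DMSO 0 members were called in either direction; over all targets 0.216% were called higher and 0.288% lower. The median member difference was 0.08, and 220 of 238 members (92.4%) lay within 0.5 of 0, against 0.05 and 96.0% over all targets. With centring on the spike-ins the median of members became -0.23, 0 members were called higher and 3 lower. In LPS 5 members were called higher and 0 lower, against 0.272% and 0.760% of all targets, and the median member difference was 0.01, which was 0.01 on the spike-in scale too. Of these 5, Snora47 and 2700069I18Rik were below 0 on 1 array or more.

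Snora47 is a snoRNA of the H/ACA class, which guides pseudouridylation. It had levels of 0.14, -0.35, 1.05 and 1.22, so that both Ruvbl2 siRNA arrays were above both control arrays. It was 1.57 higher with Ruvbl2 siRNA in LPS (2.97-fold), and 0.91 higher in DMSO, or 0.60 on the spike-in scale. Zbed3, the gene it lies within, differed by -0.14 and -0.01. Snora81, of the same class, had levels of 0.82, 0.33, 1.30 and 1.60. It was 1.27 higher with Ruvbl2 siRNA in LPS and 0.48 higher in DMSO. Its host Eif4a2, a translation initiation factor gene, differed by 0.39 and -0.04. The labelled cRNA does not tell a mature snoRNA from the unspliced host transcript that contains it.

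Of the 10 snoRNAs, 2 were called higher with Ruvbl2 siRNA in LPS and 9 had a difference above 0, with a median of 0.38 and a range from -0.11 to 1.57. The median over all targets was 0.02, and 6612 of 12508 were above 0. In DMSO 7 of 10 were above 0 with a median of 0.21, which turned to -0.10 on the spike-in scale, and none was called. Of all targets, 7458 of 12499 were above 0 in DMSO, with a median of 0.05. For LPS against DMSO under control siRNA, 8 of the 10 snoRNAs were below 0, with a median of -0.19. Snora47 and Snora81 were both at -0.49 there. The siRNA comparison in LPS uses the same array with control siRNA and LPS, so a low value on it enters both. Snora47, Snora52 and Snora78 were below 0 on that array, at -0.35, -0.08 and -0.15, and were members through other arrays. Snora23 had levels of 0.27, 0.49, 0.90 and 0.88 and Snora73a, which is very abundant in most cells, had 5.92, 6.20, 6.24 and 6.44. For both, the Ruvbl2 siRNA arrays were above the control arrays, by 0.62 and 0.39 for Snora23 and by 0.32 and 0.24 for Snora73a in DMSO and LPS. On the spike-in scale this order held for Snora23 but not for Snora73a. Snord17, a C/D box snoRNA of the kind that guides ribose methylation, was the exception among these 10 in LPS at -0.11. The U3 RNA, Rnu3b1, is a small nuclear RNA in the gene table and so is outside these 10. It differed by -0.21 in DMSO and -0.36 in LPS, and the guide RNA Scarna13, also outside, by -0.24 and -0.0008. Over all 21 small structural RNAs, 13 were above 0 in LPS and 8 below. The genes of the H/ACA core proteins differed by 0.16 and 0.31 for Dkc1, the pseudouridine synthase, and by 0.20 and 0.22 for Nop10, 0.17 and 0.06 for Nhp2, and 0.03 and 0.33 for Gar1.

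The 13 snoRNA host genes had small differences with Ruvbl2 siRNA. In LPS 11 of 13 were above 0, with a median of 0.25 and a range from -0.21 to 0.52, and none was called. In DMSO 11 of 13 were above 0 with a median of 0.20, but on the spike-in scale 2 of 13 were and the median was -0.12. Of all targets, 6612 of 12508 were above 0 in LPS and 7458 of 12499 in DMSO. Snhg12 had levels of 2.50, 2.01, 2.70 and 2.54 and Snhg15 had 4.87, 4.92, 5.23 and 5.35. A second Snhg15 probe gave 0.33 in DMSO and 0.54 in LPS, beside 0.36 and 0.43 for the first. With LPS 10 of 13 hosts were below 0 under control siRNA, with a median of -0.16, while 6002 of 12508 targets were above 0. The lowest of them, Snhg8, had levels of 5.44, 4.89, 5.65 and 5.07, and LPS differences of -0.55 and -0.58.

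**Figure D3:**
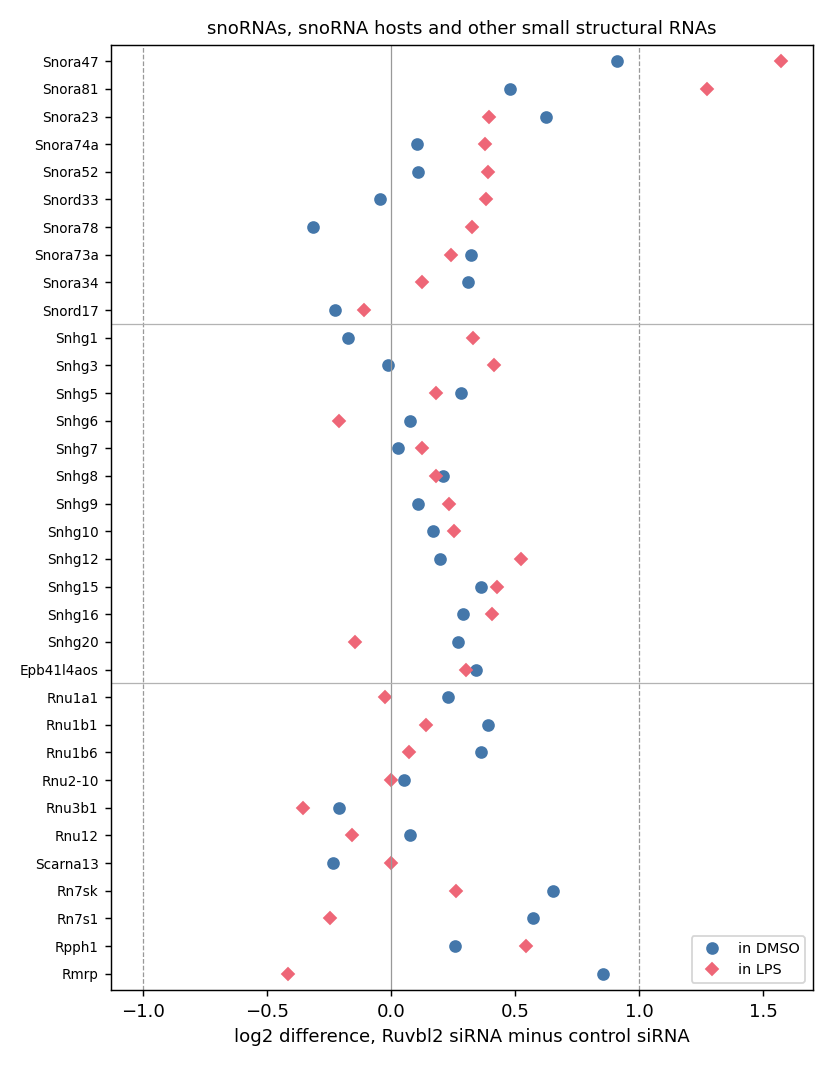
Ruvbl2 siRNA minus control siRNA differences on the log2 scale for 10 snoRNAs (top), 13 snoRNA host genes (middle) and 11 other small structural RNAs (bottom), with circles for DMSO and diamonds for LPS; dashed lines mark the 2-fold size. Snora47 and Snora81 in LPS lie beyond the line, and Rmrp lies on opposite sides of 0 in the 2 treatments.

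The other 3 members called with Ruvbl2 siRNA in LPS were 2210408F21Rik, 2700069I18Rik and Gm5124, whose levels are given above. They were 1.43, 1.14 and 1.01 higher with Ruvbl2 siRNA in LPS and 0.53, 0.35 and 0.64 higher in DMSO. All 3 also had lower values in LPS under control siRNA, and both comparisons use the array with control siRNA and LPS, so a low value on that array enters both. 2310040G24Rik was 0.99 higher in LPS and 0.32 higher in DMSO. Gm5124 was at 0.97 after normexp correction and 0.99 after quantile normalization, whereas the other two stayed past 2-fold under all 7 alternative treatments of the signal.

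Lncpint, a lncRNA induced by p53 in published work, starts 1877 bases from 2210408F21Rik. It had levels of 0.96, 0.14, 1.73 and 0.99. Within each treatment the Ruvbl2 siRNA array was higher, by 0.78 in DMSO and 0.85 in LPS, and LPS was lower within each siRNA, by 0.82 and 0.74. None of these reached 2-fold, and on the spike-in scale the siRNA difference in DMSO was 0.46 and the LPS difference under Ruvbl2 siRNA was -0.37. A probe for another Lncpint accession gave 0.62 and 0.42 for the siRNA and -0.57 and -0.77 for LPS. The other p53-linked members were Neat1 and Pvt1, which had levels of 0.45, 0.77, 0.61 and 0.82. Of the coding p53 targets, Cdkn1a differed by 0.13 and 0.24 with Ruvbl2 siRNA and Mdm2 by 0.26 and 0.37.

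**Figure D4:**
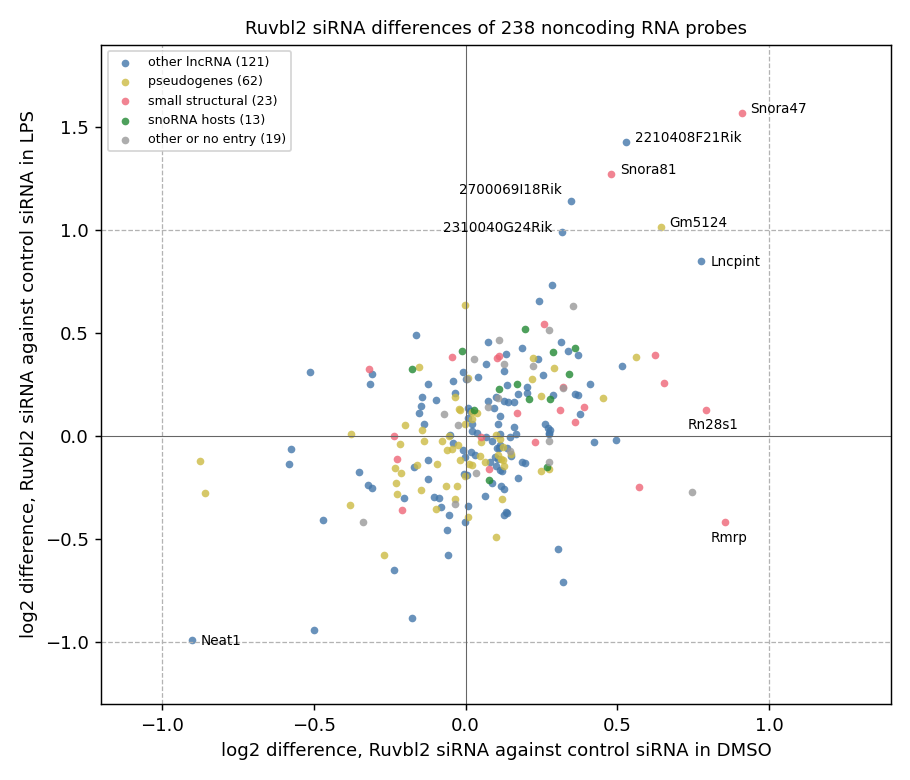
Ruvbl2 siRNA minus control siRNA differences of the 238 members on the log2 scale, in DMSO on the x axis and in LPS on the y axis; each point is 1 member, coloured by class, and dashed lines mark the 2-fold size. No point passes the line in DMSO, 5 pass it upward in LPS, and Neat1 lies just short of it at the lower left.

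The siRNA comparisons in DMSO and in LPS share no array. Their differences correlated with r of 0.46 and rho of 0.40 across the 238 members and with r of 0.43 and rho of 0.38 across 9294 coding transcripts, again as descriptions across transcripts. A total of 147 of the 238 members had the same sign in both, beside 5897 of the 9294 coding transcripts.

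The LPS difference was finally set against the siRNA. No member was more than 2-fold higher in its LPS difference under Ruvbl2 siRNA than under control siRNA, and 3 were more than 2-fold lower, against 0.232% higher and 0.592% lower over all targets. On the spike-in scale 5 were higher and 0 lower. Rmrp, the RNA of the RNase MRP enzyme that processes ribosomal RNA precursors, had levels of 3.29, 3.88, 4.14 and 3.46. LPS was 0.59 higher under control siRNA and 0.68 lower under Ruvbl2 siRNA, a difference of -1.27 between the effects. On the spike-in scale the LPS differences were 0.64 and -0.31 and the difference between them -0.96. The lncRNA BC051226 had levels of 0.73, 1.25, 1.05 and 0.54 and a difference of -1.03, or -0.71 on the spike-in scale. The accession NR_003280 gave -1.02, or -0.70 on that scale. The array with Ruvbl2 siRNA and DMSO was the highest for Rmrp and NR_003280, but on the spike-in scale the array with control siRNA and LPS was. For BC051226 that array was the highest on both scales.

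A set of 23 held the small structural RNAs and those that the gene table classes as ribosomal. Members without an entry in that table, such as NR_003280, were not counted. Of the 23, 9 were highest on the array with Ruvbl2 siRNA and DMSO and 10 on that with Ruvbl2 siRNA and LPS. On the spike-in scale these counts were 1 and 14. Rn28s1, 28S ribosomal RNA, had levels of 8.14, 8.19, 8.93 and 8.32. Rn7s1, of the signal recognition particle RNA family, had 5.45, 5.87, 6.02 and 5.63, and Rn7sk, an RNA that restrains the elongation factor P-TEFb, had 2.52, 2.69, 3.18 and 2.95. With Ruvbl2 siRNA in DMSO they differed by 0.79, 0.57 and 0.65, and by 0.48, 0.26 and 0.34 on the spike-in scale. Rn28s1 was highest on that array on both scales, whereas on the spike-in scale Rn7s1 was highest with control siRNA and LPS and Rn7sk with Ruvbl2 siRNA and LPS. The spike-ins were brightest, relative to the 75th percentile, on the array with Ruvbl2 siRNA and DMSO, and the part of labelling or RNA quality in this was not tested. Of the 21 small structural RNAs, 16 were above 0 in DMSO with a median of 0.26, beside 7458 of 12499 targets. On the spike-in scale the median of these RNAs was -0.05, and 9 were above 0. The U1 genes Rnu1a1, Rnu1b1 and Rnu1b6 differed by 0.23, 0.39 and 0.36 in DMSO and by -0.03, 0.14 and 0.07 in LPS.

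A list of well-studied lncRNAs, most of them nuclear, imprinted or X-linked, contributed 7 members, Firre and Neat1 among them. Norad, which binds PUMILIO proteins in the cytoplasm and so is an exception in this list, had levels of 6.36, 5.84, 6.52 and 6.01. Both LPS arrays were lower, by 0.52 and 0.51, and 3 further probes gave -0.79 to -0.74 under control siRNA and -0.61 to -0.40 under Ruvbl2 siRNA. On the spike-in scale the member probe gave -0.46 and -0.14. The imprinted antisense transcript Kcnq1ot1 had levels of 1.53, 1.85, 1.77 and 2.51, highest with Ruvbl2 siRNA and LPS. Its LPS differences were 0.33 and 0.74, and 3 further detected probes gave 0.25 to 0.29 and 0.57 to 0.91. On the spike-in scale the member probe passed 2-fold under Ruvbl2 siRNA, at 1.11, and its siRNA difference in DMSO turned from 0.24 to -0.07. Peg13, an imprinted transcript, differed by -0.53 and -0.76 with LPS, Crnde by -0.38 and -0.37 and Oip5os1 by 0.24 and 0.15. Airn, Tug1 and Morrbid had probes that came near the threshold at -0.25, -0.38 and -0.36, and Xist, H19 and Meg3 stayed at -4.23 or lower.

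The 14 members named as antisense or opposite strand transcripts held no call in any comparison. Their LPS differences under control siRNA ran from -0.52 to 0.89 with a median of -0.12. Hoxb5os was a case where probes disagreed: the member probe gave -0.18 and 0.16 for LPS, and a dimmer probe of the same accession, at levels of -1.82, -3.15, -1.84 and -2.96, gave -1.33 and -1.12. Sp3os had levels of 2.75, 3.07, 3.25 and 3.05.

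The 62 pseudogene transcripts had median differences of -0.02 and -0.06 with LPS and 0.00 and -0.08 with Ruvbl2 siRNA. Gm5176 and Gm13315, named here after their values were seen, were the lowest of all members but Neat1 with Ruvbl2 siRNA in DMSO. Gm5176 had levels of 3.97, 3.58, 3.10 and 3.46 and Gm13315 had 5.46, 5.29, 4.60 and 5.01, each lowest on the array with Ruvbl2 siRNA and DMSO. Gpr137b-ps had levels of 4.20, 3.52, 4.45 and 3.71 and LPS differences of -0.68 and -0.74, and its parent Gpr137b, a lysosomal membrane protein gene, -0.65 and -0.77. Hmga2-ps1 gave -0.65 and -0.49 where Hmga2, a gene of an architectural chromatin protein, gave 0.69 and 0.77. A pseudogene and its parent can share the sequence a probe binds, and the probe sequences were not used here.

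By gene table class, the 12 members with the brightest probes held 8 transcribed pseudogenes and 2 ribosomal RNAs. The brightest, NR_003278 at a mean level of 10.56, had no entry in that table. Brightness differs between probes, so it is no order of abundance. Of these 12, 11 were within 0.3 of 0 in all 4 pairwise comparisons, among them Rn4.5s at levels of 8.96, 9.02, 9.13 and 9.14 and Gm15772 at 9.09, 9.20, 9.21 and 9.15. The exception was Rn28s1.

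Members and coding genes beside or over them could be set side by side for 159 pairs in which both were well above background on all 4 arrays. Their LPS differences under control siRNA correlated with r of 0.24 and rho of 0.16, and with r of 0.31 and rho of 0.24 over the 64 pairs that overlap. Under Ruvbl2 siRNA the LPS differences gave r of 0.21 and rho of 0.08 over the 159 pairs and r of 0.01 and rho of -0.01 over the 64. The siRNA differences in DMSO gave r of 0.08 and rho of 0.06 over the 159 pairs and r of 0.10 and rho of 0.12 over the 64. In LPS they gave r of 0.16 and rho of 0.13 over the 159 pairs and r of 0.33 and rho of 0.22 over the 64. These values describe pairs on the same arrays.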

How the data were processed

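Cy3-labelled RNA from 4 RAW264.7 samples was read on 1-colour Agilent arrays. Per the file headers, the authors' scanner files were made with Feature Extraction 11.5.1.1 (11.0 in the submitters' processing notes) and hold the background-subtracted intensity of each spot, not scaled between arrays. The deposited value table holds the same intensity at all 62976 spots of each array (relative tolerance 1e-06). The level is log2 of that intensity minus the 75th percentile of the array's RNA probes, after leaving out population outlier spots and averaging repeat spots. With 1 array per group no test was run, and a call is a log2 difference of at least 1. Symbols came from the RefSeq gene table of GRCm38.p6 by accession. Python 3.11.15 (pandas 2.3.3, numpy 2.4.6, matplotlib 3.10.9) and limma 3.58.1 in R 4.3.3 were used, and the calling step and the motif search were tested on simulated data. Alternatives were quantile normalization with or without normexp correction (offset 50), centring on the E1A spike-ins or the median of detected probes, all probes of an accession averaged, member levels of 1 or -1, symbols with an NM_ probe kept, outlier spots kept, and the deposited table. The mean foreground signal planned for normexp was replaced by the median one, which the files hold. Names were drawn from the 12 members with the highest mean level, members of the gene lists, and Ruvbl2 and Ruvbl1. Up to 8 called members per comparison and direction, and up to 6 for the difference of LPS effects, were added. Coding neighbours of members called with LPS were named where detected on all 4 arrays. Names outside this rule were chosen after their values were seen: hosts of snoRNAs, parents of pseudogenes, H/ACA protein genes, Cdkn1a, Mdm2, other neighbours and the probes that disagree. The members and lists were chosen with earlier results of these data known. The number of arrays limits the precision.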

Additional observations from a re-analysis of the deposited data

Results flagged for a closer look

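Rmrp and BC051226 had LPS differences of opposite sign with the 2 siRNAs, each of at least 0.5 in size. For Rmrp, LPS minus DMSO was 0.59 with control siRNA and -0.68 with Ruvbl2 siRNA, a difference of -1.27. For BC051226 the values were 0.52 and -0.51, a difference of -1.03. On the spike-in scale these differences were -0.96 and -0.71, short of a call. Under Ruvbl2 siRNA neither LPS difference reached a size of 0.5 on that scale. It was -0.31 for Rmrp, and BC051226 was at -2.90 with DMSO and -3.05 with LPS relative to the spike-ins. The difference was not tested for either, since each group was 1 array.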

How the results depend on the processing

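No paired analysis was possible because each group had 1 array and the labels give no replicate numbers; for the same reason no replicate could be left out. Of 100 counts of called members under the alternatives, 87 were within 1.5 times the count reported, and none of the 25 called values changed sign. Centring on the E1A spike-ins moved 5 of the counts: with Ruvbl2 siRNA, LPS called 11 members higher and 0 lower, Ruvbl2 siRNA in DMSO called 3 lower, and the difference of LPS effects called 5 higher and 0 lower. With a member level of -1 there were 323 members, of which LPS called 11 higher and 12 lower under control siRNA and 7 higher and 4 lower under Ruvbl2 siRNA, while Ruvbl2 siRNA called 2 lower in DMSO and 1 lower in LPS. Keeping symbols with an NM_ probe (250 members) gave 1 higher for the difference of LPS effects. After normexp correction 1 member was lower in that difference. More members enter at the lower level by construction, and the cause of the other shifts was not tested. Low levels limit the precision, since repeat spots there gave an SD of 0.14 from 2 probes only.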
